A study of Mus musculus with 309 samples.

Results

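T11-APOBEC is 1 of the mouse mammary tumour models of a series of 309 bulk mRNA-seq libraries, and the 6 tumours described here are the 3 given trametinib and the 3 left untreated. They were chosen by their titles alone, so no measured value entered the choice. T11 is known as a mesenchymal, claudin-low tumour line from a p53-deficient mouse mammary gland, and its T11-APOBEC form carries the name of the APOBEC cytidine deaminases, which mutate DNA. The labels give the tissue as mammary tumour and the series as individual tumours. Host strain, sex, age, dose, schedule, the day of collection and the way the T11-APOBEC form was made were not given in the sources used here, and no label says that the 3 tumours of a group came from separate experiments. The p-values therefore measure the spread between these tumours. The labels give 1 median survival per group, which was 15 days for untreated, 42 days for trametinib and 18 days for erlotinib T11-APOBEC tumours, with no animal-level values and so no test. Since the day of collection is not given, the drug and the time that a tumour had grown cannot be told apart. Comparisons were added with 3 T11-APOBEC tumours given erlotinib, and with the trametinib response of T11 and of T12, a further mammary tumour model in the series. T11 and T12 each had 3 trametinib-treated and 3 untreated tumours. An untreated T11 tumour that the labels place outside the trametinib set was left out and entered 1 alternative only.

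Trametinib is an allosteric inhibitor of MEK1 and MEK2, the kinases that activate ERK1 and ERK2 at the end of the Ras, Raf, MEK and ERK cascade. Active ERK switches on transcription factors of the ETS, AP-1 and EGR families, and with them the phosphatases and Sprouty proteins that restrain the cascade, the growth factor ligands that feed it, and cyclin D, which opens the cell cycle. Erlotinib inhibits the EGFR kinase, one of several receptors upstream of that cascade. In claudin-low mammary tumours the cancer cells express few epithelial genes and many mesenchymal ones, so that cancer cells and fibroblasts share part of their markers.

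The untreated libraries held 22283153, 22636489 and 23097951 estimated counts, and the trametinib libraries 69272697, 18919335 and 40273693. Values are given as CPM, counts scaled to the same library total for all samples, after 1 TMM scaling over 21 libraries, so they compare samples for a gene but not genes of different length. Mitochondrial genes took 3.35% to 4.52% of the counts, and replicates differed by more than sampling noise in every pair. Trametinib and untreated tumours separated on the first principal component, which held 55.9% of the variance. Epcam, an epithelial adhesion molecule, lay between 0.103 and 2.14 CPM and Vim, the mesenchymal filament vimentin, between 2681 and 3031 CPM over the 6 libraries. Genes of surrounding tissues varied between libraries. The summed level of 9 skeletal muscle genes was 3917, 508 and 39.5 CPM in the untreated tumours and 677, 1171 and 345 CPM with trametinib. The summed level of 7 skin keratinocyte genes reached 222 CPM in untreated replicate 2 and at most 10.8 CPM in the other 5 libraries.

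Trametinib-treated and untreated tumours differed in a large part of the measured transcriptome. Of 15443 genes tested, 5774 were called at an adjusted p under 0.05 in edgeR's quasi-likelihood test, or 37.4%, with 18.4% higher and 19% lower. Among these, 920 rose and 396 fell by more than 2-fold. The split varied with the processing. A limma fit to the authors' upper-quartile table, with another test and log transform, called 3070 genes higher and 1601 lower. That was 65.7% higher against 49.2% in the main fit. With only the scaling changed in edgeR, 53.9% were higher with upper-quartile factors and 48.8% with DESeq2 size factors. Groups did not overlap for 51.8% of genes, with 24.9% higher and 26.8% lower. The median log2 fold change over all genes was -0.004. The members of each gene list below are to be read against those shares.

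**Figure D1:**
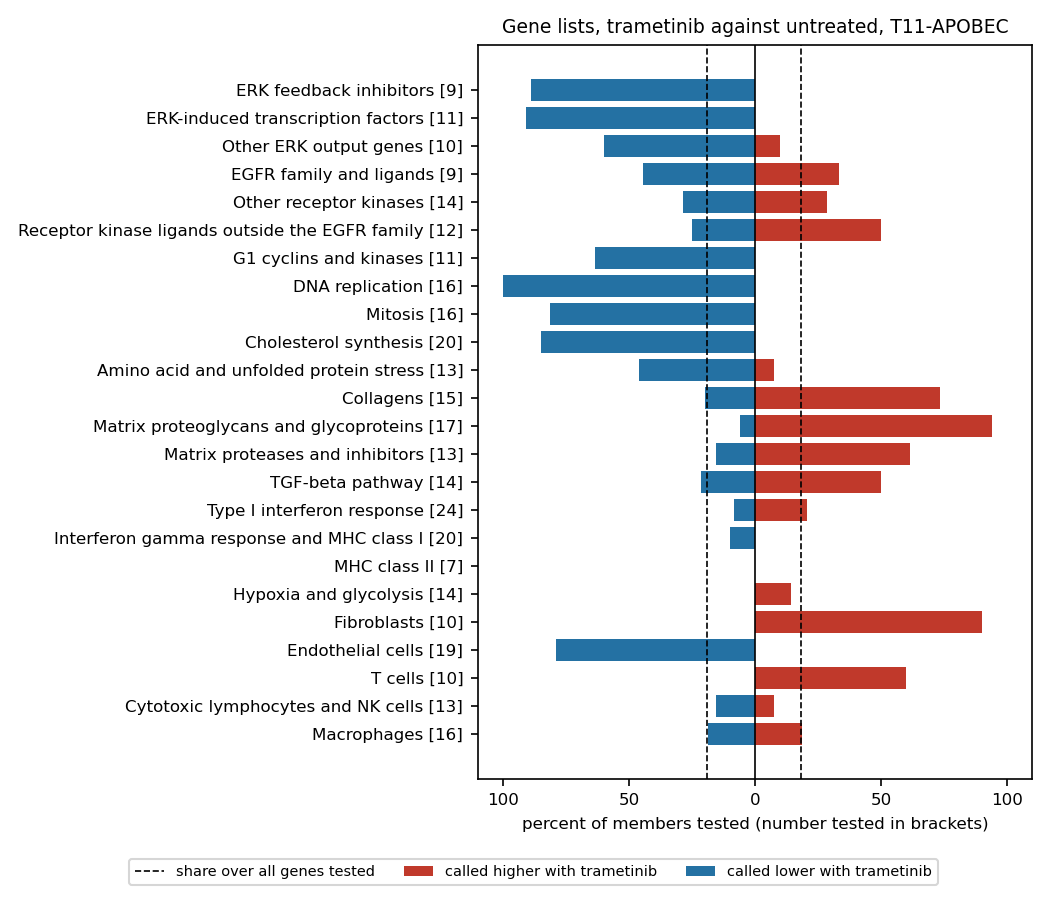
Share of the tested members of 24 gene lists called higher (red, right) or lower (blue, left) in trametinib-treated against untreated T11-APOBEC tumours, with the number tested in brackets and dashed lines at the shares over all genes (18.4% higher, 19% lower). The ERK, cell cycle, cholesterol and endothelial lists lie to the left and the matrix and fibroblast lists to the right.

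The genes through which ERK restrains its own pathway fell. Of 9 feedback inhibitors, 8 were lower and none higher, with a median log2 fold change of -0.46; a limma fit to the authors' upper-quartile table had 4 lower and 1 higher. Dusp6, the cytoplasmic phosphatase that switches off ERK (chromosome 10, 99263231 to 99267489, mm10), was counted at 190, 232 and 280 CPM in the untreated tumours and at 61.3, 57.8 and 72.6 CPM with trametinib. All trametinib tumours lay below all untreated ones, a 3.64-fold lower level (log2 fold change -1.86, SE 0.15, adjusted p = 0.000195). Dusp4, a nuclear ERK phosphatase, had 24.1, 29.7 and 35.5 CPM untreated and 7.99, 7.98 and 8.16 CPM treated (log2 fold change -1.88, SE 0.14, adjusted p = 0.000144). The treated values were almost equal while the untreated ones were spread more widely. Spry4, a Sprouty protein that blocks receptor signalling to Ras, had 58.2, 58.7 and 82.5 CPM untreated and 25, 26.2 and 31.3 CPM treated (log2 fold change -1.26, SE 0.15, adjusted p = 0.00104). Dusp5 fell by 1.70 on the log2 scale, Spry2 by 0.42, and Spred1, Spred2 and Spred3, which restrain Ras and Raf, by 0.31 to 0.46. Spry1, the remaining member, had a log2 fold change of 0.27 (adjusted p = 0.119).

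ERK-induced transcription factors fell in 10 of 11 cases, with none higher and a median of -1.0. Egr1, an immediate early zinc finger factor, was at 131, 100 and 155 CPM untreated and 21.2, 19.1 and 35.3 CPM with trametinib, a 5.07-fold lower level (log2 fold change -2.34, SE 0.26, adjusted p = 0.000712). Its relative Egr3 fell by 2.54. Etv4, an ETS factor that marks ERK output in many tissues (chromosome 11, 101769742 to 101785371), was at 147, 131 and 142 CPM untreated and 49.6, 45.7 and 56.7 CPM treated (log2 fold change -1.46, SE 0.09, adjusted p = 7.05e-05). The groups were far apart for both factors, with little spread in Etv4. Etv5 fell by 1.00 on the log2 scale and Etv1 by 0.35. Myc, the growth-promoting factor, had 342, 351 and 509 CPM untreated and 212, 223 and 242 CPM treated (log2 fold change -0.82, SE 0.15, adjusted p = 0.00562). Untreated replicate 3 was the highest, and the groups did not overlap without it. Fosl1, the AP-1 subunit Fra-1, fell less, from 126, 126 and 164 CPM to 103, 93.1 and 104 CPM (log2 fold change -0.46, SE 0.11, adjusted p = 0.0144), and was not called in the authors' upper-quartile table. Ier3 was not called.

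Among 10 other ERK output genes, 6 were lower and 1 higher. Hmga2, a chromatin protein of embryonic and mesenchymal cells, stood at 325, 324 and 325 CPM in the untreated tumours and 118, 104 and 117 CPM with trametinib (log2 fold change -1.52, SE 0.07, adjusted p = 2.7e-05). Ccnd1, which encodes cyclin D1, had 366, 325 and 338 CPM untreated and 240, 186 and 219 CPM treated (log2 fold change -0.67, SE 0.10, adjusted p = 0.00273). Neither gene's groups overlapped, and the fall of Hmga2 was the larger. Epha2, an ephrin receptor kinase, fell by 1.21, Plaur, the urokinase receptor, by 1.00, and the low gene Tfpi2, a protease inhibitor, by 2.12 on the log2 scale. Epha4 was higher (log2 fold change 1.40, adjusted p = 0.0147) at a level of 1.24 ± 0.176 CPM (SD, n = 3) with trametinib, a call not kept under every alternative. In the promoters (250 bases before each RefSeq start) of 21 of the 30 genes of these 3 lists, the AP-1 letters TGANTCA were in 3 of 29 promoters (Lif, Plaur and Tfpi2), or 10.3% against 6.75% of all 32851 mouse promoters, and the ETS letters CCGGAAGT, in 2.88% of all promoters, were in none. A letter match does not show a bound site.

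**Figure D2:**
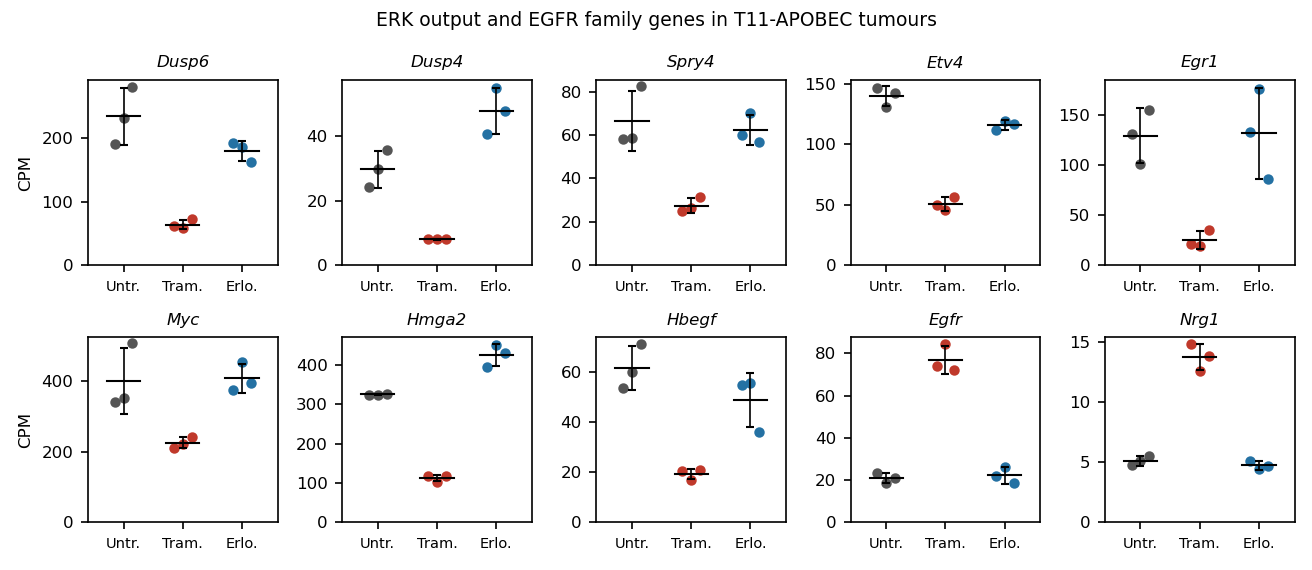
CPM of 10 genes in each T11-APOBEC tumour, untreated (grey), with trametinib (red) and with erlotinib (blue); points are tumours, horizontal lines the mean and bars the SD of 3. The first 8 genes were lowest in the 3 trametinib tumours, while Egfr and Nrg1 were highest there, and Dusp6 with erlotinib lay between 163 and 193 CPM.

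The cascade's own genes moved little. Of 15 Ras, Raf, MEK and ERK genes, 3 were higher (among them Araf by 0.30 and the scaffold Ksr1 by 0.62 on the log2 scale) and 3 lower (Rasa1, a Ras inhibitor, with -0.58, Hras with -0.33 and Nras with -0.21). Without untreated replicate 2 or trametinib replicate 3, 2 were higher and 1 lower.

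Upstream of Ras, 3 of 9 tested genes of the EGFR family and its ligands were higher (Egfr, Erbb2 and Nrg1) and 4 lower (Hbegf, Areg, Ereg and Tgfa). Egfr (chromosome 11, 16752203 to 16918158) was at 23.5, 18.5 and 21.1 CPM in the untreated tumours and 73.8, 84.3 and 72 CPM with trametinib. Every treated tumour was above every untreated one, a 3.66-fold higher level (log2 fold change 1.87, SE 0.10, adjusted p = 4.84e-05). Its partner Erbb2 was higher by 0.54 (adjusted p = 0.0357), a call not kept under every alternative. Nrg1, a ligand of the related receptors ERBB3 and ERBB4, rose from 4.74, 5.12 and 5.56 CPM to 14.8, 12.6 and 13.8 CPM (log2 fold change 1.43, adjusted p = 0.000252). Erbb4 itself had no count in these 6 libraries. Hbegf, a membrane-bound EGFR ligand, fell from 53.8, 59.9 and 71.2 CPM to 20.5, 17.1 and 20.8 CPM (log2 fold change -1.65, SE 0.12, adjusted p = 0.000144), with no overlap. The other EGFR ligands were scarce. Areg was at 1.21, 1.43 and 3.72 CPM untreated and 0.0983, 0.258 and 0.22 CPM treated, Ereg at 2.5 to 5.73 and 1.03 to 1.26 CPM, and Tgfa at 0.947 to 1.09 and 0.122 to 0.253 CPM. All 3 fell, by 3.57, 1.86 and 2.31 on the log2 scale.

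Of 14 other receptor kinases tested, 4 were higher and 4 lower. The platelet-derived growth factor receptors were among the higher ones. Pdgfra had 32.2, 42.8 and 34.1 CPM untreated and 132, 109 and 111 CPM treated (log2 fold change 1.70, SE 0.13, adjusted p = 0.000155), and Pdgfrb had 270, 291 and 348 CPM untreated and 747, 737 and 668 CPM treated (1.25, SE 0.10, adjusted p = 0.000195). Kit, the stem cell factor receptor, was lower by 1.02 on the log2 scale (adjusted p = 0.0182). The count of lower receptors rested on single libraries, since 1 was called without untreated replicate 2, 2 without trametinib replicate 2 and none without trametinib replicate 3. Of 12 ligands outside the EGFR family, 6 rose and 3 fell. Igf2, an embryonic growth factor that signals through the IGF1 receptor (chromosome 7, 142650766 to 142666816), had 9.86, 4.96 and 6.61 CPM untreated and 216, 195 and 183 CPM treated, 27.9-fold higher (log2 fold change 4.80, SE 0.23, adjusted p = 3.06e-05). Igf1 was 5.17-fold higher at 50 ± 8.39 CPM (SD, n = 3) and Fgf7 3.80-fold higher at 6.27 ± 1.15 CPM. Pdgfa, a ligand of Pdgfra, fell from 80.9, 98.7 and 137 CPM to 40.6, 39.5 and 42.8 CPM (log2 fold change -1.36, adjusted p = 0.00132).

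Cell cycle genes were lower. Of 11 G1 cyclins and kinases 7 fell and none rose, with E2f2, an activating E2F factor, at -1.27, Ccne1 at -0.87 and Ccne2 at -0.59 on the log2 scale. All 16 DNA replication genes fell, by 0.43 (Gins2) to 1.34 (Gins1), with a median of -0.78, and 15 or all 16 were called under every alternative. Pcna, the sliding clamp of the replication fork, was at 141, 124 and 121 CPM untreated and 61.7, 64 and 61.4 CPM with trametinib (log2 fold change -1.04, SE 0.07, adjusted p = 0.000107). The treated tumours were tightly grouped and all below the untreated ones. Mcm6, a subunit of the replicative helicase (chromosome 1, 128331590 to 128359664, minus strand), was at 138, 122 and 111 CPM and 72.8, 77.1 and 63.3 CPM (log2 fold change -0.80, SE 0.10, adjusted p = 0.00146). Its helicase partner Mcm5 was at 117, 92.5 and 89 CPM and 65.7, 70 and 56.6 CPM (-0.63, adjusted p = 0.00729). Pola1, the catalytic subunit of DNA polymerase alpha, fell from 49.6, 38.6 and 33.9 CPM to 22.8, 21.7 and 19 CPM (-0.94, SE 0.15, adjusted p = 0.00291). For all 4 genes the groups did not overlap.

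Replication genes are classic targets of E2F factors, so the promoters of this list, as RefSeq gives them on GRCm38.p6, were searched on both strands for the E2F letters TTTCCCGC and TTTGGCGC. At least 1 form was in 5 of 14 promoters (those of Cdc6, Mcm5, Mcm6, Mcm7 and Pola1), or 35.7%, against 1.3% of all 32851 promoters. The promoters below are shown because their genes fell and hold such letters outside any annotated exon. Each is 250 bases 5′ to 3′ on the gene's own strand and ends just before the RefSeq start, with the matched letters, on either strand, in capitals.
Mcm5, chr8:75109259-75109508, plus strand: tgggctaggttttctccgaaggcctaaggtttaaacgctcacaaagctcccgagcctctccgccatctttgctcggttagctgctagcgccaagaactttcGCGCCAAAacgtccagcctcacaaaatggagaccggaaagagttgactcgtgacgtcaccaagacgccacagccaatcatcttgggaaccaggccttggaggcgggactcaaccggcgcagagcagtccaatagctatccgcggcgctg
Mcm6, chr1:128359706-128359955, minus strand: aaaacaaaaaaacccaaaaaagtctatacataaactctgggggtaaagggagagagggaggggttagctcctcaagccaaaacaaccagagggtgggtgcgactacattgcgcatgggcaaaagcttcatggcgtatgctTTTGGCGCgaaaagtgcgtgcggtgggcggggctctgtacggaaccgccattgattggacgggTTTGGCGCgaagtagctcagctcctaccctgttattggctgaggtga
Pola1, chrX:93632156-93632405, minus strand: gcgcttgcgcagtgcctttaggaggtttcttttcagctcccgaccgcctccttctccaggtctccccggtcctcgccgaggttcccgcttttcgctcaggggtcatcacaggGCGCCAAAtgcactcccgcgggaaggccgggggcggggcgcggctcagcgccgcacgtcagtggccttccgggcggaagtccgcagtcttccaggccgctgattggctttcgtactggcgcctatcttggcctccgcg
The match begins 149 bases before the start in Mcm5 and 138 bases before it in Pola1, and the first of 2 matches in Mcm6 lies 110 bases before it. In Mcm5 and Pola1 the capitals are the reverse complement of TTTGGCGC, and in Mcm6 both copies read TTTGGCGC itself. The match is a description of these letters and not a measurement of E2F binding.

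Mitotic genes were lower too. Of 16, 13 were lower and none higher, with a median of -0.59, but 7 were lower without trametinib replicate 1, and also 7 without trametinib replicate 3. Cdk1, the kinase that starts mitosis, was at 82, 68.6 and 69.4 CPM untreated and 35.7, 42.3 and 32.8 CPM treated (log2 fold change -0.99, SE 0.11, adjusted p = 0.000854). Mki67, the proliferation antigen, was at 239, 179 and 167 CPM untreated and 148, 164 and 127 CPM treated, and did not pass the threshold (-0.41, SE 0.15, adjusted p = 0.0705). Of 7 CDK inhibitors 1 rose and 2 fell (2 rose and 3 fell without untreated replicate 1). Cdkn1b (p27), which holds cells in G1, was higher at 95, 110 and 96.3 CPM against 62.8, 63.5 and 63.5 CPM (0.67, adjusted p = 0.000562). Cdkn1a (p21) had a log2 fold change of -0.46 (adjusted p = 0.0786). Among 13 Bcl2 family genes 1 rose and 4 fell, of which 1 still fell without untreated replicate 2 or trametinib replicate 3 and 2 without untreated replicate 3. Bmf, a pro-apoptotic BH3-only protein, rose from 20.6, 18.7 and 19.2 CPM to 50.2, 52 and 44.6 CPM (log2 fold change 1.33, SE 0.08, adjusted p = 6.5e-05), while Bcl2l1, the survival protein Bcl-xL, fell from 84.6, 96 and 87.1 CPM to 59.1, 48.3 and 55.3 CPM (-0.71, SE 0.09, adjusted p = 0.00136). For neither did the groups overlap. Of 13 p53 target genes 4 were higher and 2 lower, or 2 higher and 1 lower without untreated replicate 2. Trp53 itself was at 116, 94.1 and 122 CPM untreated and 113, 134 and 126 CPM treated (adjusted p = 0.232), a gene-level count that does not show whether exons are missing.

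Sterol synthesis genes fell. Of 20 cholesterol genes 17 were lower and none higher, with a median log2 fold change of -0.80; 14 to 17 were lower under the alternatives. Hmgcs1, which makes the substrate of the rate-limiting enzyme of sterol synthesis (chromosome 13, 119690379 to 119708260), was at 105, 116 and 106 CPM untreated and 59.8, 51.6 and 78.7 CPM with trametinib (log2 fold change -0.77, SE 0.15, adjusted p = 0.00623). Trametinib replicate 3 was the highest treated tumour and still below every untreated one. Idi1, an isoprenoid isomerase, fell by 1.68, Fdps by 1.41, Sqle by 1.32, Insig1, which retains the sterol sensor in the endoplasmic reticulum, by 1.19, and Srebf2, the transcription factor of the pathway, by 0.69 on the log2 scale. The promoter of Hmgcs1 is shown because sterol genes are known to be driven by that factor through the sterol regulatory element, here searched as TCACNCCAC. Hmgcs1 had the only match among 16 promoters of 13 of the 20 genes, or 6.25%, against 1.05% of all promoters. The matched letters, in capitals, begin 137 bases before the RefSeq start in these 250 bases of GRCm38.p6.
Hmgcs1, chr13:119690101-119690350, plus strand: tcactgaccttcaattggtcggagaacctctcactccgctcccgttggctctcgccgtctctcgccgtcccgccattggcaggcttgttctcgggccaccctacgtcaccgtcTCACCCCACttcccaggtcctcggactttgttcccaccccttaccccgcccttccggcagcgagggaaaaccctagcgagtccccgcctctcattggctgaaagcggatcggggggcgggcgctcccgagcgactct

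Amino acid stress genes were also lower. Of 13 genes of the amino acid and unfolded protein responses, 6 fell and 1 rose. Asns, asparagine synthetase, was at 124, 133 and 138 CPM untreated and 39.6, 45.7 and 37.9 CPM treated, 3.20-fold lower with no overlap (log2 fold change -1.68, SE 0.08, adjusted p = 3.82e-05). Slc7a11, the cystine importer, fell from 12.7, 16.4 and 15.8 CPM to 3.64, 3.97 and 4.16 CPM (-1.93, SE 0.14, adjusted p = 0.000128). Psat1 and Phgdh, which make serine, fell by 1.22 and 1.09, and Atf4, the transcription factor of this response, by 0.34 on the log2 scale. Cth, which makes cysteine, was among the 12 largest falls of genes averaging a log2 CPM of 2 or more, from 19.1, 22.8 and 26.3 CPM to 3.47, 4.33 and 3.25 CPM (-2.63, SE 0.16, adjusted p = 6.84e-05). Herpud1, a gene of the unfolded protein response, was the higher member (0.53, adjusted p = 0.00946). Of 14 hypoxia and glycolysis genes 2 were called, both higher. Car9, a hypoxia-induced carbonic anhydrase, had 22.5, 29.2 and 54.8 CPM untreated and 104, 166 and 170 CPM treated (2.05, SE 0.34, adjusted p = 0.00363), and Pdk1, which diverts pyruvate from mitochondria, had a log2 fold change of 0.82 (adjusted p = 0.0197). Without untreated replicate 3, which had the most Car9 of its group, 8 of the 14 were higher, and Car9 alone was called, Pdk1 being lost, without untreated replicate 2, trametinib replicate 2 or trametinib replicate 3.

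Matrix genes were among the largest rises. Of 17 matrix proteoglycans and glycoproteins, 16 rose and 1 fell, with a median log2 fold change of 1.92, and 11 of 15 collagens rose while 3 fell. Fmod, fibromodulin, which binds collagen fibrils (chromosome 1, 134037254 to 134048277), was at 14.9, 6.3 and 7.28 CPM untreated and 619, 761 and 482 CPM with trametinib, 65.6-fold higher (log2 fold change 6.04, SE 0.38, adjusted p = 6.84e-05). Prelp, a basement membrane anchor of the same leucine-rich repeat family, was at 13.6, 4.33 and 4.18 CPM and 515, 421 and 294 CPM (5.80, SE 0.51, adjusted p = 0.00029). The lowest treated tumour was far above the highest untreated one for both, though the rule that named them required some gap. Postn, periostin (chromosome 3, 54361109 to 54391037), was at 387, 460 and 447 CPM untreated and 3290, 3378 and 3269 CPM treated (2.95, SE 0.08, adjusted p = 4.6e-06). Col1a1, the main chain of type I collagen (chromosome 11, 94936224 to 94953042), was at 1694, 1826 and 1919 CPM and 9247, 11034 and 10447 CPM (2.50, SE 0.09, adjusted p = 1.08e-05). Treated replicates of Postn and Col1a1 lay close together. Col11a1, a fibrillar collagen of cartilage and activated stroma, rose 22-fold, and Omd, osteomodulin, 34.3-fold, to 97.8 ± 11.9 and 30.5 ± 3.15 CPM (SD, n = 3).

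The exceptions were of another kind. The 3 collagens that fell were Col4a1 and Col4a2, the main chains of basement membrane collagen, and Col15a1, which lies at vessel basement membranes. Col4a1 had 574, 614 and 807 CPM untreated and 359, 277 and 401 CPM treated (log2 fold change -0.94, SE 0.17, adjusted p = 0.00514). Tnc, tenascin C, was the glycoprotein that fell, from 1100, 1033 and 1144 CPM to 611, 604 and 667 CPM (-0.79, SE 0.07, adjusted p = 0.000278). Among 13 matrix proteases and inhibitors 8 rose and 2 fell. Mmp2, a gelatinase, was 3.54-fold higher, while Timp1, a metalloprotease inhibitor, and Plau, urokinase, fell by 0.96 and 1.22 on the log2 scale. Of 14 TGF-beta pathway genes 7 rose and 3 fell, of which 1 fell without untreated replicate 1, trametinib replicate 1 or trametinib replicate 2, and 2 without any other 1 library. The log2 fold changes of that list ran from -0.73 to 2.39, with a median of 0.3. Tgfb3, a ligand, had 119, 107 and 138 CPM untreated and 614, 686 and 602 CPM treated (2.39, SE 0.10, adjusted p = 2.46e-05). Tgfbi and Ccn2 fell by 0.32 and 0.47 on the log2 scale.

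Fibroblast markers moved with the matrix genes. Of 10, 9 rose, with a median of 1.61, and their summed level was 2260 to 2494 CPM in the untreated tumours and 11050 to 12790 CPM with trametinib; none was at 0. Acta2, smooth muscle actin of contractile fibroblasts, was at 233, 187 and 230 CPM untreated and 827, 856 and 901 CPM treated (log2 fold change 2.0, SE 0.10, adjusted p = 3.06e-05). Thy1, a surface marker of fibroblasts and also of T cells, was the member not called (-0.41, adjusted p = 0.251). Itga11, an integrin subunit that binds collagen on fibroblasts (chromosome 9, 62677826 to 62783982), was at 4.61, 4.54 and 4.39 CPM untreated and 124, 125 and 132 CPM treated, 28.3-fold higher (4.82, SE 0.07, adjusted p = 1.59e-07). In bulk RNA, more cells of a type and more RNA per cell cannot be told apart, and neither can fibroblasts and mesenchymal cancer cells for most of these genes; their part in the matrix result was not tested. Mesenchymal transition genes were mixed, with 4 of 10 higher (Snai2, Prrx1, Cdh11 and Zeb1) and Twist2 lower by 1.13, a call lost without untreated replicate 2.

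**Figure D3:**
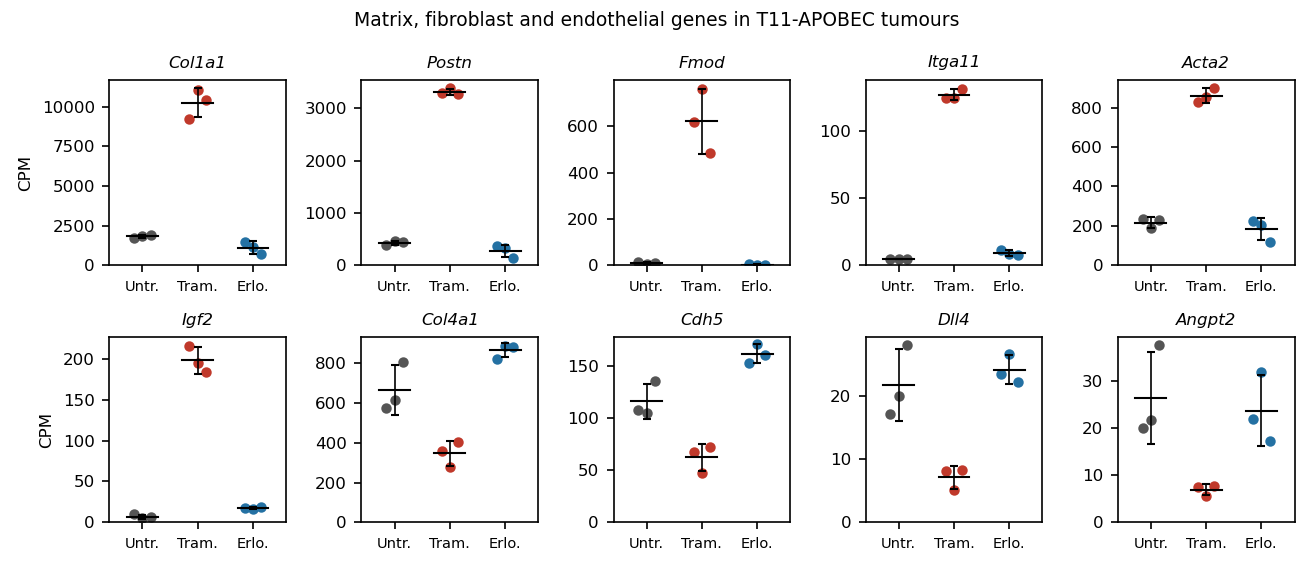
CPM of 6 matrix, fibroblast and growth factor genes and 4 basement membrane and endothelial genes in each T11-APOBEC tumour; points are tumours, lines the mean and bars the SD of 3. Col1a1, Postn, Fmod, Itga11, Acta2 and Igf2 were highest in the 3 trametinib tumours, and Col4a1, Cdh5, Dll4 and Angpt2 lowest there.

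Vessel genes fell. Of 19 endothelial genes 15 were lower and none higher, with a median of -0.88, and 12 to 16 were lower under the alternatives. Their summed level was 761, 812 and 986 CPM untreated and 523, 406 and 535 CPM treated. Cdh5, the endothelial cadherin, was at 107, 105 and 136 CPM untreated and 67.3, 47.3 and 72.1 CPM treated (log2 fold change -0.89, SE 0.17, adjusted p = 0.00621). Genes of sprouting vessels were among those that fell. Angpt2, which destabilises vessels, was at 20, 21.8 and 37.8 CPM and 7.6, 5.56 and 7.68 CPM (-1.91, SE 0.26, adjusted p = 0.00159), and Dll4, the Notch ligand of tip cells, was at 17.1, 20 and 28.2 CPM and 8.16, 5.1 and 8.31 CPM (-1.57, SE 0.24, adjusted p = 0.00257). Tek, Eng, Cldn5 and Vwf were not called. Of 6 pericyte genes 4 fell (2 without trametinib replicate 3), among them Rgs5, a regulator of G protein signalling (-1.50, adjusted p = 0.00213), while Pdgfrb, which fibroblasts also express, rose.

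Lymphocyte genes were higher in some of the treated tumours. Of 10 T cell genes 6 were higher, with a median of 1.70, but the groups were apart for 4 of the 10, and the summed level was 24.2, 59.4 and 22.6 CPM untreated and 147, 63.2 and 138 CPM with trametinib. Untreated replicate 2 and trametinib replicate 2 were therefore close. Cd8a, which marks cytotoxic T cells, was at 1.94, 6.89 and 1.38 CPM untreated and 22.5, 8.09 and 23.8 CPM treated (log2 fold change 2.43, SE 0.65, adjusted p = 0.023), and Cd4, of helper T cells, at 4.26, 8.7 and 4.1 CPM and 24.7, 18.2 and 28.1 CPM (2.07, SE 0.31, adjusted p = 0.00252). The count of 6 became 1 without untreated replicate 1, trametinib replicate 1 or trametinib replicate 3, became 2 without untreated replicate 3, and became 10 without untreated replicate 2. Cd8a itself was lost without untreated replicate 1, trametinib replicate 1 or trametinib replicate 3. Of the 13 genes of cytotoxic and NK cells 2 fell, the granzymes Gzma and Gzmb, and 1 rose, Eomes. Both shares were below those of all genes (19% lower and 18.4% higher). Gzmb was at 8.95, 11.7 and 6.36 CPM untreated and 4.51, 4.07 and 2.54 CPM treated (-1.28, SE 0.29, adjusted p = 0.0131). Its call was lost with the spread shared over 12 T11-APOBEC libraries. That of Eomes (0.92, adjusted p = 0.0315) was lost without any 1 library other than trametinib replicate 2. Of 8 B and plasma cell genes 5 passed the filter on low counts, and 3 of these were higher. The summed level of all 8 overlapped between groups, at 56.2, 55.6 and 38 CPM untreated and 81, 53.5 and 76 CPM with trametinib. Igkc, the kappa light chain of antibodies and not in that list, was at 2.32, 2.73 and 2.18 CPM and 92.7, 28.7 and 145 CPM (5.22, SE 0.61, adjusted p = 0.000933). Mzb1, a plasma cell gene, had no count in the untreated tumours and 0.941, 0.464 and 1.12 CPM with trametinib, at least 19.9-fold higher than the 3 counts over the untreated group that a count of 0 allows. For both genes all treated tumours lay above all untreated ones, which the rule that named Igkc required of it. The treated tumours differed widely among themselves.

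Macrophage genes went both ways, at shares near those of all genes (18.4% higher and 19% lower) and with a median log2 fold change of -0.05. Of 16 macrophage genes 3 were higher (Adgre1, Cd68 and Apoe) and 3 lower, or 2 higher and 1 lower without trametinib replicate 3. Msr1, a scavenger receptor, was at 91.5, 112 and 94 CPM untreated and 28.7, 16.9 and 27.5 CPM treated (log2 fold change -2.0, SE 0.20, adjusted p = 0.000439), and Adgre1, the F4/80 antigen, at 77.2, 82.7 and 63.6 CPM and 113, 97 and 99.2 CPM (0.48, SE 0.11, adjusted p = 0.0144). Ccr1, a chemokine receptor of myeloid cells, was among the 12 largest falls of genes averaging a log2 CPM of 2 or more, from 69.3, 76.5 and 69.6 CPM to 6.15, 3.09 and 9.19 CPM (-3.50, SE 0.32, adjusted p = 0.000315). Of 6 monocyte chemokines and growth factors 3 were lower, Ccl2, Ccl7 and Ccl12, by 0.94, 1.12 and 1.61 on the log2 scale. Ccl2 was lost without trametinib replicate 3 and under both shared spreads, and Ccl7 with the spread shared over 12 libraries. Of 9 neutrophil markers 2 passed the filter on low counts, and Csf3r, the receptor of the neutrophil growth factor G-CSF, was higher at 46.3, 37.3 and 39.7 CPM against 19.1, 27.6 and 19.7 CPM (0.90, SE 0.16, adjusted p = 0.00454). The summed neutrophil markers were at 19.6 to 28.7 CPM untreated and 40.0 to 47.9 CPM treated, without overlap, and Csf3r made up most of the sum. Of 24 type I interferon genes 5 were higher (Ifit1, Ifit3, Rsad2, Mx2 and Ddx58) and 2 lower (Oas1a and Oasl1). Ifit3 had 16, 13.7 and 9.33 CPM untreated and 40.4, 19.7 and 28.1 CPM treated (1.20, SE 0.29, adjusted p = 0.0157). Without any 1 library other than trametinib replicate 2, only 2 or 3 were higher, and Ifit1 was lost in 4 of those fits. Of the 2 lower genes, 1 was called without untreated replicate 3 and none without any other 1 library. Of 20 interferon gamma and MHC class I genes none was higher and 2 were lower, the chemokine Cxcl11 (-1.59, adjusted p = 0.014) and Socs1, an inhibitor of cytokine signalling (-0.54). Socs1 was lost without any 1 of the 3 trametinib tumours and, like Cxcl11, under both spreads shared over more libraries, where none of the list was called. None of 7 MHC class II genes was called, and Cd74, the class II chaperone, ran from 1948 to 4130 CPM untreated and from 2689 to 5180 CPM treated. Cd274, which encodes PD-L1, was at 16, 23.3 and 13.9 CPM untreated and 22.5, 11.2 and 19.3 CPM treated (0.01, SE 0.28, adjusted p = 0.976). The ranges of the groups overlapped.

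**Figure D4:**
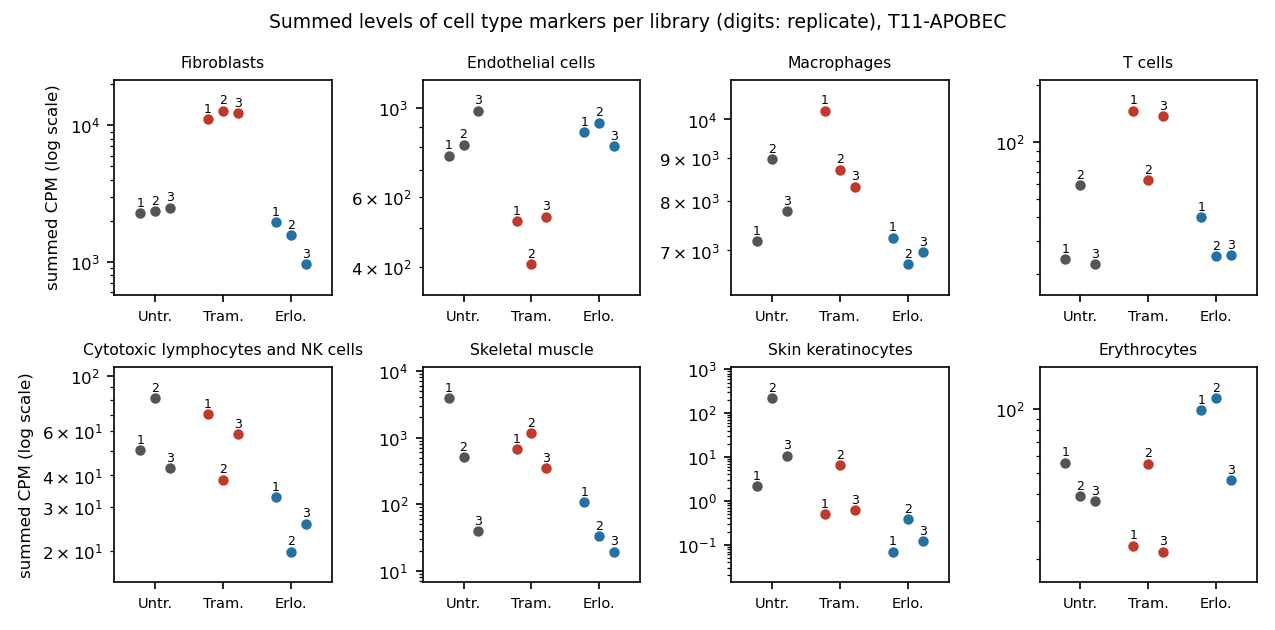
Summed CPM (log scale, which differs between panels) of the marker genes of 8 cell types in each T11-APOBEC library, with the replicate number at each point. Fibroblast sums are higher and endothelial sums lower in all 3 trametinib libraries than in all untreated ones, while T cell, macrophage, muscle and keratinocyte sums vary within groups, with muscle from 39.5 to 3917 CPM in the untreated tumours.

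Further genes at the extremes belonged to no list above. Among the rises, Penk, which encodes the opioid precursor proenkephalin, was at 4, 4.45 and 2.64 CPM untreated and 151, 105 and 71.1 CPM treated (log2 fold change 4.89, SE 0.34, adjusted p = 0.000101), and Comp, a cartilage matrix protein, at 2.11, 1.09 and 0.837 CPM and 34, 40.6 and 26.3 CPM (4.65, SE 0.32, adjusted p = 0.000101). Myh3, the embryonic skeletal muscle myosin, had the largest rise among genes averaging a log2 CPM of 2 or more, from 0.732, 0.546 and 0.167 CPM to 131, 45.5 and 31.3 CPM (7.17, SE 0.77, adjusted p = 0.000655). The skeletal muscle list was not called for any of its 9 genes, and the untreated tumour with the highest muscle sum, replicate 1, had 0.732 CPM of Myh3. The tissue source of the Myh3 rise was not tested. Among the falls, Dmp1, a bone matrix phosphoprotein (chromosome 5, 104202613 to 104214102), was at 103, 195 and 182 CPM untreated and 6.36, 4.28 and 7.28 CPM treated, 26-fold lower (-4.70, SE 0.30, adjusted p = 7.4e-05). Glp1r, the receptor of the incretin GLP-1, was at 203, 194 and 197 CPM and 29.6, 30.1 and 43.6 CPM (-2.51, SE 0.15, adjusted p = 6.17e-05). Both fell with no overlap, which the rule that named them required. Apobec3, the mouse deaminase of the model's name family, was at 64.2, 60.5 and 58.4 CPM untreated and 60.8, 47.8 and 53.5 CPM treated (-0.17, adjusted p = 0.213), and Ung, which removes the uracil that deaminases leave in DNA, was lower by 0.91 on the log2 scale (adjusted p = 0.00413).

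Trametinib tumours were compared directly with erlotinib tumours of the same model. The median survival of these groups was 42 and 18 days, so drug and time of growth cannot be told apart here either. Trametinib tumours had higher levels of 3080 genes and lower levels of 2857 out of 15543, or 19.8% and 18.4%, and 38.2% in either direction. The 3 trametinib tumours serve here as well as in the comparison with untreated tumours, so the 2 sets of values are not independent and are set side by side. Dusp6 was at 193, 186 and 163 CPM with erlotinib, all above the trametinib tumours (log2 fold change -1.48, SE 0.10, adjusted p = 5e-05), and Egr1 at 133, 176 and 85.8 CPM (-2.36, adjusted p = 0.000756). Egfr was at 22.2, 26.4 and 18.5 CPM with erlotinib, with a mean within 1 SD of the untreated mean. It was 1.79 higher with trametinib than with erlotinib on the log2 scale (adjusted p = 5.84e-05). All 16 replication and all 16 mitotic genes were lower with trametinib than with erlotinib, as were 17 of 20 cholesterol and 17 of 19 endothelial genes, while 15 of 17 proteoglycans were higher. Fmod had 3.06, 1.45 and 0.939 CPM with erlotinib and was higher with trametinib by 8.39 on the log2 scale (SE 0.36, adjusted p = 1.18e-05), the largest named rise, and Dmp1 with -4.07 and Fosb, an AP-1 subunit, with -2.95 were among the falls. Of 24 type I interferon genes 19 were higher with trametinib than with erlotinib, Ifit1 at 23.8, 14.1 and 20.2 CPM against 5.63, 8.51 and 6.82 CPM (1.51, SE 0.22, adjusted p = 0.00131). All 10 T cell genes and all 9 skeletal muscle genes were also higher, the muscle sum being 107, 33.4 and 19.5 CPM with erlotinib; the part of tissue content in these differences was not tested.

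Erlotinib against no treatment, which uses the same 3 untreated tumours, called 907 genes higher and 720 lower of 15174, or 5.98% and 4.74%, 10.7% in either direction. That count was unstable. It was 0 without untreated replicate 2 and without erlotinib replicate 2 (with 3557 and 3830 genes at an unadjusted p under 0.05), 5 without erlotinib replicate 3 and 373 without untreated replicate 1. DESeq2 called 2701 genes on all 6 libraries. In that comparison no gene of the replication, mitosis, EGFR or collagen lists was called, 2 of 9 ERK feedback genes were higher (Dusp4 by 0.68 on the log2 scale, adjusted p = 0.0384), and 13 of 24 type I interferon genes were lower, Ifit1 with -0.77 (adjusted p = 0.0359).

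The same drug was then set beside its response in T11 and in T12, in 1 fit of 18 libraries. In that fit T11-APOBEC had 3628 of 17745 genes called (20.4%, with 9.7% higher and 10.7% lower). T11 had 5719 (32.2%, with 15.5% higher and 16.7% lower) and T12 had 1259 (7.09%, with 2.74% higher and 4.35% lower); spreads and depths differed, with 71519991 to 103916775 counts in the T12 libraries, so the counts do not rank the models. The responses of T11 and T11-APOBEC differed in 140 genes, or 0.789%, of which 53 were higher (0.299%) and 87 lower (0.49%) in T11-APOBEC, while DESeq2 called 1132 on the same contrast. In the edgeR fit no member of the ERK feedback, ERK transcription factor, replication, mitosis, cholesterol, collagen, proteoglycan, fibroblast, endothelial or T cell lists was among them. Fmod had a log2 fold change of 5.27 (SE 0.76) in T11, Postn 2.07 (SE 0.20), Dusp6 -1.45 (SE 0.15) and Hmgcs1 -1.34 (SE 0.14). Missing the threshold does not show that the responses were alike, since the standard error of a difference between models was 0.21 for Dusp6 and 0.92 for Fmod on the log2 scale. The edgeR count ranged from 14, without T11-APOBEC untreated replicate 2, to 1530, without T11 untreated replicate 3, and lay between 25 and 57 without any 1 of 8 further libraries.

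Amino acid stress genes were among those whose response differed between T11-APOBEC and T11, with 4 of 13 lower in T11-APOBEC. Trib3, a pseudokinase induced by ATF4, had 13.6, 18.7 and 17.2 CPM untreated and 7.69, 10.4 and 8.12 CPM with trametinib in T11-APOBEC, a log2 fold change of -0.92 (adjusted p = 0.00488) against 1.32 (SE 0.17, adjusted p = 3.2e-05) in T11, and the responses differed by -2.26 (SE 0.23, adjusted p = 0.000933). Asns fell in both, with 0.49 as the fall in T11, and the responses differed by -1.20 (SE 0.20, adjusted p = 0.0154). Cx3cr1, the fractalkine receptor of monocytes and macrophages, was at 127, 117 and 112 CPM untreated and 166, 116 and 156 CPM treated in T11-APOBEC (0.31, adjusted p = 0.108) and fell by 1.99 in T11 (difference 2.29, SE 0.32, adjusted p = 0.00719). Per1, a circadian clock gene, fell by 0.72 in T11-APOBEC and rose by 1.54 in T11 (difference -2.27, SE 0.39, adjusted p = 0.0174); time of day at collection is not given in the sources used here. Ccne2 fell by 0.59 and, in T11, by 1.85 (difference 1.25, SE 0.18, adjusted p = 0.00719).

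Against T12 the responses differed in 1765 genes (9.95%), 981 higher (5.53%) and 784 lower (4.42%) in T11-APOBEC. Matrix genes were among them, with 12 of 17 proteoglycans and 11 of 15 collagens higher, and 4 of 10 fibroblast genes. The median log2 fold change of the proteoglycan list was 0.07 in T12. Fmod had -0.73 (SE 0.64) in T12, a difference of 6.75 (SE 0.99, adjusted p = 0.000875), and Itga11 had 0.75 (SE 0.23), a difference of 4.06 (SE 0.34, adjusted p = 1.43e-05). In the untreated tumours the summed fibroblast markers were at 3527 to 5502 CPM in T12 and 2260 to 2494 CPM in T11-APOBEC. Egfr had 0.26 (SE 0.18, adjusted p = 0.418) in T12, a difference of 1.60 (SE 0.26, adjusted p = 0.00163). Of the ERK genes, Dusp6 fell in T12 by 1.13 (difference -0.75, SE 0.21, adjusted p = 0.0382) and Etv4 by 0.49 (difference -0.98, SE 0.17, adjusted p = 0.00233), while the difference for Egr1 did not pass (0.66, SE 0.46, adjusted p = 0.394). Glp1r went the other way, falling by 7.46 in T12 (difference 4.93, SE 0.59, adjusted p = 0.000266). F2rl1, a protease-activated receptor, fell 4.88-fold in T11-APOBEC and had a log2 fold change of 0.41 (adjusted p = 0.327) in T12.

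**Figure D5:**
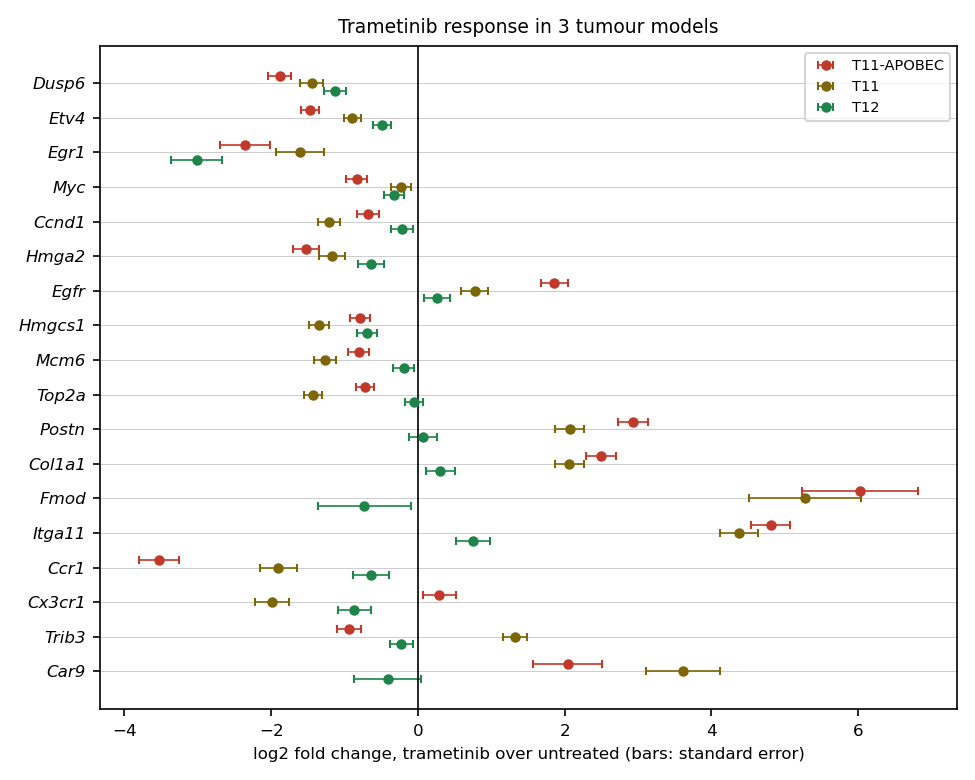
Log2 fold change with trametinib over untreated for 18 genes in T11-APOBEC (red), T11 (brown) and T12 (green), 3 tumours per group, with the standard error of the 18-library fit as bars. Dusp6 and Etv4 lie below 0 in all 3 models, Fmod and Itga11 lie far to the right in T11-APOBEC and T11, with -0.73 and 0.75 in T12, and Trib3 and Cx3cr1 separate T11-APOBEC from T11.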

How the data were processed

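The tumours were mammary tumours of Mus musculus. Per the labels' protocols, RNA was taken with the RNeasy Mini Kit from homogenized cryopreserved tumours and made into poly(A) libraries with the Illumina TruSeq mRNA kit. Per the submitters' processing notes, STAR, SAMtools, Picard and Salmon were used with mm10; their order, settings and versions, and whether reads were assigned by strand, were not given in the sources used here, so overlapping genes and close paralogs may share counts.

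The authors deposited estimated counts for 55291 gene symbols, of which 8.05% of values in the 21 libraries used were not whole, and a table of normalized signal, which by comparison equals the count divided by the library's 75th percentile of values above 0, times 1000. Counts were rounded and tested with edgeR 4.0.16 in R 4.3.3 (TMM scaling, filterByExpr, quasi-likelihood test, Benjamini-Hochberg adjustment, threshold 0.05). Each comparison between groups of T11-APOBEC tumours was fitted on its own 6 libraries, and the differences between models on 18 libraries with a term per group. The standard error is the log2 fold change over the square root of F. CPM use the TMM factors of all 21 libraries. The CPM of a library of 18919335 counts rest on fewer counts than those of one of 69272697, and intervals cover these tumours only.

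Alternatives were other scalings, other filters, DESeq2 1.42.0, limma 3.58.1 on the deposited signal (log2 with a pseudocount of 1), thinning to the smallest total, spreads shared over more libraries, and leaving out each tumour. An exact permutation test of 3 against 3 tumours cannot go below p = 0.1 and was not used. The scripts were tested on simulated data. Members and the 46 gene lists (520 genes) were chosen with earlier results of these data known, so a list's share of calls is set beside that of all genes and has no test. Named genes were the 12 largest rises and falls that were called, averaged a log2 CPM of 2 or more and had no overlap, the 3 smallest p of each list, a fixed set of ERK, cell cycle, immune and tumour marker genes, and the 6 largest each way in other comparisons. Other list members, such as the further ligands, cholesterol genes and interferon genes, and the genes named for their promoters, were chosen after their values were seen. Gene positions are from GENCODE M21 on mm10 and promoters from RefSeq on GRCm38.p6, of which 250 bases before the start were searched. Values of some list members are not reported here.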

Additional observations from a re-analysis of the deposited data

Results flagged for a closer look

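The results gathered here are genes whose response to trametinib differed between T11-APOBEC tumours and one of the other models at an adjusted p under 0.05 in edgeR's quasi-likelihood interaction test (Benjamini-Hochberg over all genes tested). Each difference is the T11-APOBEC log2 fold change minus that of the other model, in the 18-library fit with 3 tumours in each of 6 groups. No cause of any of these differences was tested.

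Against T11, genes that fell less or rose more in T11-APOBEC had positive differences. Cx3cr1, a chemokine receptor of monocytes and microglia, differed by 2.285, with log2 responses of 0.29 in T11-APOBEC and -1.99 in T11. Igkc, the immunoglobulin kappa constant region, differed by 3.837, and Slco2b1, an organic anion transporter, by 1.693. Ccne2, a cyclin E, differed by 1.248, since it fell by 0.60 in T11-APOBEC and by 1.85 in T11. Pik3r3 differed by 1.432, Slc24a3 by 1.195 and Lgr4 by 1.176. Of these, Slc24a3 lost its call under 13 of 17 alternatives and Pik3r3 under 11. Differences in the other direction were -2.433 for Slc7a2, a cationic amino acid transporter, -2.383 for Inhbb, -2.277 for Cebpd, -2.273 for Per1, -2.265 for Hspb1, -2.26 for Trib3 and -1.62 for Ccr1. Hspb1 lost its call under 9 of 17 alternatives, Inhbb under 7 and Cebpd under 5, while Cx3cr1, Ccne2 and Trib3 kept theirs under all 17. Trib3, a pseudokinase of the stress response, had log2 responses of -0.94 in T11-APOBEC and 1.32 in T11.

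Against T12, the largest positive differences among the genes gathered here were in matrix and secreted genes. Fmod, encoding fibromodulin, differed by 6.754, with log2 responses of 6.02 in T11-APOBEC and -0.73 in T12. Igkc differed by 6.147, Penk by 5.786, Col11a1 by 4.983, Comp by 4.936, Prelp by 4.232, Col8a2 by 4.126, Itga11 by 4.057 and Omd by 3.522. Glp1r differed by 4.93 because it fell further in T12, by 7.46, than in T11-APOBEC, by 2.53. Frmpd3 differed by 4.491, and its own response in T11-APOBEC did not pass the test in that fit. Egfr, the epidermal growth factor receptor, differed by 1.598, with log2 responses of 1.86 and 0.26.

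Genes that fell further or rose less in T11-APOBEC than in T12 included the ERK-pathway outputs Etv4, with a difference of -0.981, and Dusp6, with -0.75. Ccr1 differed by -2.886, Sema3e by -2.751, F2rl1 by -2.705, Cst6 by -2.56, Cxcl14 by -2.336, Tent5b by -2.317 and Gzmb, encoding granzyme B, by -2.116. Cst6 lost its call under 6 of 16 alternatives and Cxcl14 under 1, while Ccr1, Sema3e, F2rl1 and Tent5b kept theirs. The other genes of this paragraph were not followed gene by gene under the alternatives. Acsbg1 differed by -2.113, Cth by -1.247 and Btbd11 by -0.95. Apobec3, the endogenous mouse cytidine deaminase, differed by -0.677, with log2 responses of -0.18 in T11-APOBEC and 0.50 in T12.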

How the results depend on the processing

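No paired analysis was possible because the labels give the groups no shared replicate numbers, and the numbers used here only name samples in accession order. Among the genes named by rule, no value that passed the test changed sign. Values that passed none did, such as Cd274, from -0.195 to 0.26. The 5774 genes called between trametinib-treated and untreated T11-APOBEC tumours became 3628 when the spread was estimated over 18 libraries of 3 models, and 3703 to 5293 when 1 library was left out, lowest without trametinib replicate 3. Against erlotinib, 5937 calls became 4324 to 5333 with 1 library left out. Between erlotinib and untreated tumours, 1627 calls became 2701 with DESeq2 and 0 to 1228 with 1 library left out. For the difference in response from T11, 140 calls became 1132 with DESeq2, 304 without the T12 libraries (163 higher and 141 lower, against 53 and 87) and 14 to 1530 with 1 library left out. From T12, 1765 calls became 975 to 2077 with 1 library left out. For these changed counts the cause was not tested. Of the 165 genes named by rule between trametinib-treated and untreated tumours, 128 passed the test and 99 of those passed it under every alternative run. For the list members outside these 165, the alternatives gave counts per list and no value per gene. Of the 12 genes named for a different response from T11, 3 kept the call under every alternative, and of the 12 named against T12, 10 did. Slc7a2 against T11 had an adjusted p of 0.323 when the untreated T11 tumour outside the labels' trametinib set was added. Genes with few counts are limited by depth in the smallest T11-APOBEC trametinib library, of 18919335.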
